A study of Mus musculus with 4 samples.

Results

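The Fc gamma receptors bind the constant part of IgG antibodies and link antibody-coated material to the cells that carry them. The genes described here are the 4 mouse Fc gamma receptors Fcgr1, Fcgr2b, Fcgr3 and Fcgr4, the common chain Fcer1g, and Fcgrt, the heavy chain of the neonatal receptor FcRn. They were chosen by name as a receptor family, and all 6 were found among the 35869 genes listed in each sample. All 6 were also among the 16849 genes tested, which had a level of at least 1 TPM (transcripts scaled by length and to a constant total) in at least 2 samples.

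RNA-seq was performed on CD45+ cells, which are immune cells, from the epididymal white adipose tissue (eWAT) of WT C57BL/6 mice. One group was fed a normal fat diet (ND) and the other a high-fat diet (HFD), both starting at 8 weeks of age and lasting 12 weeks, with 2 samples each. The mice carried no engineered allele, and cells were enriched with CD45 microbeads from the collagenase-digested stromal vascular fraction of the fat. The number of mice behind each library is not given in the sources used here, so p-values measure only the spread between these samples, which may be technical.

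Fcgr1, Fcgr3 and Fcgr4 are activating receptors. They pair with Fcer1g, a short chain that carries the activation motif (ITAM) which recruits the kinase Syk, and signaling leads to phagocytosis and cytokine release. Fcgr2b is the inhibitory receptor, which carries its own inhibitory motif (ITIM) and recruits phosphatases such as Inpp5d. The balance of activating to inhibitory receptors on a macrophage therefore sets how strongly it responds to immune complexes. FcRn, made of Fcgrt and B2m, works inside the cell, where it binds IgG in acidic endosomes and returns it to the surface.

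The libraries held approximately 37600000 and 44500000 counted reads in ND and 46900000 and 41100000 in HFD, estimated from the smallest steps of the TPM values of microRNA genes. Ptprc, the gene of CD45, was at 54.5 and 59.4 TPM in ND versus 55.3 and 53.7 TPM in HFD. The replicates differed by 1.44 times their counting error in ND and 3.17 times in HFD, so no library was a copy of another. HFD replicate 1 stood apart, with 7224 TPM summed over 7 spermatid genes against 1907 to 2184 TPM in the other 3 samples. Fibroblast genes, from cells that should lack CD45, summed to 593.5 and 637.8 TPM in ND versus 3032 and 6064 TPM in HFD. The calls rested on both ND samples, since 0 of the genes tested passed in limma without either of them (3862 and 4024 with an unadjusted p under 0.05), whereas 3051 and 4232 passed without HFD replicate 1 and 2.

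Of the 6 genes, 1 rose and 2 fell in HFD as compared to ND, by an adjusted p under 0.05 in limma and a change of at least 1.5-fold. Over all genes tested, 18.4% passed this rule, 8.08% being higher and 10.3% lower in HFD. The activating receptor Fcgr4 rose, the inhibitory receptor Fcgr2b and the FcRn chain Fcgrt fell, and Fcgr1, Fcgr3 and Fcer1g did not pass the rule. In 4 of the 6 genes the values of the diets did not overlap, 1 being higher and 3 lower in HFD, which also held for 66.9% of all genes tested, 34.1% higher and 32.8% lower. The median log2 fold change of all genes tested was 0.06, and bulk RNA cannot tell fewer cells of a type from less RNA per cell.

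**Figure D1:**
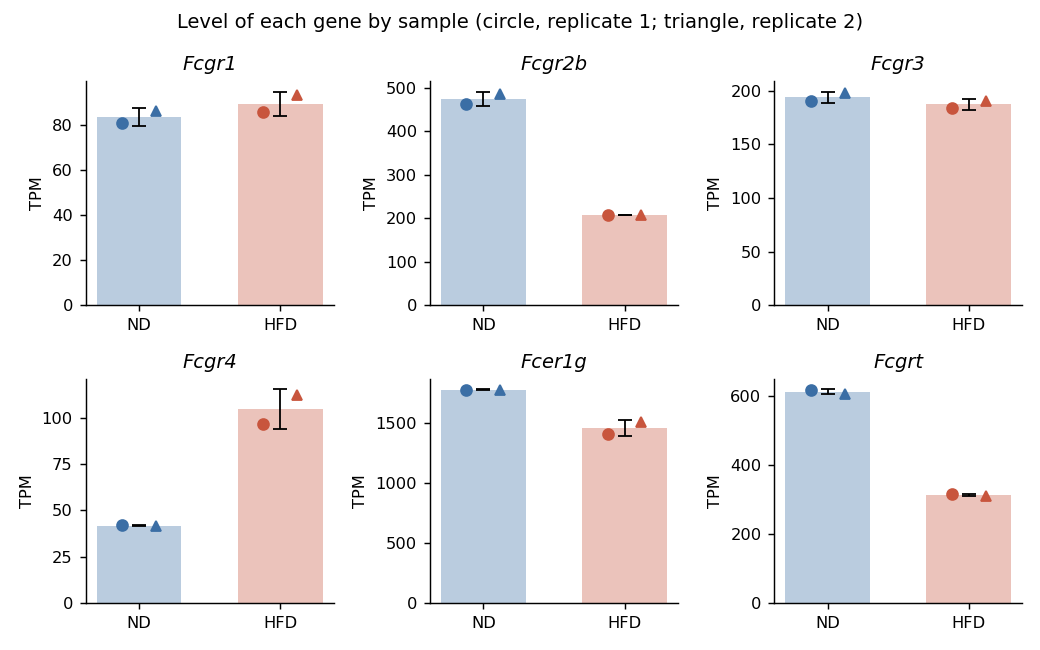
Level in TPM of each of the 6 genes in the ND and HFD samples. Bars show the mean, error bars the SD of 2 samples, circles replicate 1 and triangles replicate 2. Fcgr4 lies at 41.4 to 41.8 TPM in ND versus 96.8 to 112.1 TPM in HFD, while Fcgr2b and Fcgrt are lower in HFD.

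Fcgr2b encodes the only inhibitory member of the family. It lies on the minus strand of chromosome 1, at chr1:170960558-170976071 of GRCm38.p6 (the assembly called mm10), in 7 exons. It was at 463.3 and 486.2 TPM in ND versus 207.0 TPM in each of the HFD samples. Both HFD values lay far under both ND values, with a mean of 475 ± 16.2 TPM in ND (SD, n = 2). The gene fell by 1.19 on the log2(TPM + 1) scale (SE 0.04, adjusted p = 0.00449 in limma with Benjamini-Hochberg adjustment), 2.29-fold lower in HFD. Of the genes tested, 4.28% had a lower log2 fold change.

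Fcgr4 encodes an activating receptor of monocytes, macrophages and neutrophils. It lies at chr1:171018926-171029761 on the plus strand, in 5 exons, between Fcgr2b and Fcgr3. It was at 41.8 and 41.4 TPM in ND versus 96.8 and 112.1 TPM in HFD. Both HFD samples lay above both ND samples by more than the spread within either diet, with means of 41.6 ± 0.283 and 104 ± 10.8 TPM (SD, n = 2 each). The log2 fold change was 1.30 (SE 0.09, adjusted p = 0.00823 in limma), a 2.51-fold rise, and 3.22% of the genes tested had a higher one. Fcgr4 rested on the fewest reads of the 6 genes, approximately 748 and 857 in the ND samples, with a counting error of 3.66% and 3.42%.

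Fcgr3 encodes a low-affinity activating receptor, which NK cells, macrophages and mast cells carry. It lies at chr1:171051169-171065915 on the minus strand, in 5 exons. It was at 190.2 and 197.7 TPM in ND versus 183.9 and 191.0 TPM in HFD, and these ranges overlapped. Its log2 fold change was -0.05 (SE 0.05, adjusted p = 0.492 in limma). Under quantile normalization it was -0.20 with an adjusted p of 0.0480, relative to the macrophage list it was 0.08 (adjusted p = 0.300), and relative to the immune cell list it was 0.20 with an adjusted p of 0.0386, so its direction is not settled.

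Fcgr1 encodes the high-affinity activating receptor. It lies on another chromosome, at chr3:96282909-96293969 on the minus strand, in 6 exons. It was at 81.0 and 86.5 TPM in ND versus 85.9 and 93.4 TPM in HFD, again with overlap. Its log2 fold change was 0.10 (SE 0.07, adjusted p = 0.387 in limma), and it turned to -0.028 under quantile normalization. Relative to the macrophage list it was 0.22 (adjusted p = 0.0862 in limma) and relative to the immune cell list 0.35 (adjusted p = 0.0245), both under 1.5-fold.

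Fcer1g encodes the common chain that Fcgr1, Fcgr3 and Fcgr4 need at the surface. It lies at chr1:171229572-171234349 on the minus strand, in 5 exons, and the 4 members on chromosome 1 span 273792 bases. It was the most abundant of the 6 genes, at 1777 and 1771 TPM in ND versus 1410.2 and 1503 TPM in HFD. Both HFD samples were lower, by 17.9% on average. Its log2 fold change was -0.28 (SE 0.05, adjusted p = 0.030 in limma), which does not reach 1.5-fold, whereas 27.3% of all genes tested had an adjusted p under 0.05 at any fold. The adjusted p ran from 0.0218 to 0.416 over the alternatives, the latter relative to the immune cell list, where the log2 fold change was -0.034.

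Fcgrt encodes the heavy chain of FcRn and belongs by structure with the MHC class I molecules rather than with the Fc gamma receptors. It lies at chr7:45092993-45103822 on the minus strand, in 7 exons. It was at 617.9 and 607.9 TPM in ND versus 316.4 and 311.1 TPM in HFD. The replicates of each diet lay close together and the diets far apart, with means of 613 ± 7.07 and 314 ± 3.75 TPM (SD, n = 2 each). Fcgrt fell by 0.96 on the log2(TPM + 1) scale (SE 0.03, adjusted p = 0.00449 in limma), 1.95-fold lower in HFD.

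An exact two-sided permutation test of the 4 values of one gene cannot give a p under 0.333, which was the p for Fcgr2b, Fcgr4, Fcer1g and Fcgrt. The calls for Fcgr2b, Fcgr4 and Fcgrt were lost without ND replicate 1, at adjusted p-values in limma of 0.167, 0.169 and 0.167, and without ND replicate 2, at 0.161 for each. The log2 fold changes stayed as large, at -1.23, 1.31 and -0.95 without ND replicate 1 and at -1.16, 1.30 and -0.98 without ND replicate 2. The calls were kept without either HFD sample, where the spread comes from the ND samples and the lone HFD sample is assumed to vary like them. Over genes as a whole the ND samples lay closer together, at 1.44 times their counting error against 3.17 times in HFD. Fcgr4 went the same way (log2 SD 0.01 in ND, 0.15 in HFD). Fcgrt was at 0.02 in each diet, and Fcgr2b varied more in ND (0.05) than in HFD (0.0). Without HFD replicate 1 the log2 fold changes were -1.19 for Fcgr2b, 1.41 for Fcgr4 and -0.98 for Fcgrt.

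**Figure D2:**
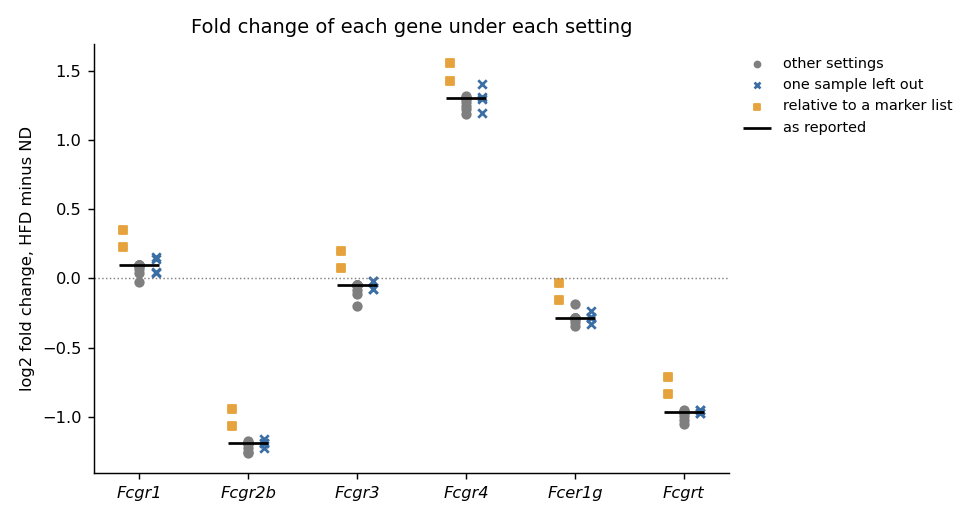
Log2 fold change, HFD minus ND, of each gene under each setting of the analysis. Black lines show the reported value, grey circles other pseudocounts, filters, scalings and models, blue crosses fits without one sample, and orange squares values relative to a list of macrophage or immune cell genes. Fcgr4 stays above and Fcgr2b and Fcgrt stay under 0 at every point, while Fcgr1 and Fcgr3 lie on both sides of it.

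Fcgr2b and Fcgr3 share a stretch of coding sequence, which bears on how far their values are separate. It covers exons 3 and 4 and lies at chr1:170966563-170968081 for Fcgr2b and chr1:171054056-171057792 for Fcgr3, introns included. Of its 240 bases, 239 are identical, and the mismatched base is in capitals. The sequences are read from GENCODE vM21 transcripts and shown because a read that misses that base fits both genes.
Fcgr2b: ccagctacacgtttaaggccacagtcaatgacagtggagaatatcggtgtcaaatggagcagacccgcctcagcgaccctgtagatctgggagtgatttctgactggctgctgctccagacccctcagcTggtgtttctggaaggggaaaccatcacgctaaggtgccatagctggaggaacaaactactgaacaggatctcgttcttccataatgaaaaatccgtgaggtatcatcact
Fcgr3: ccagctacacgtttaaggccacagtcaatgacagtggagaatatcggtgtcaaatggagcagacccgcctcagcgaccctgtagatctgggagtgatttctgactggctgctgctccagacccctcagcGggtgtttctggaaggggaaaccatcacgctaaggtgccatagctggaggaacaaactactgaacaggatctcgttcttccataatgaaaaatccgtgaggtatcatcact

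Of all 50-base windows, 11.7% of the Fcgr2b transcript and 12.8% of the Fcgr3 transcript occurred in the other gene, and of 100-base windows 3.23% and 3.53%. No window of these lengths in Fcgr1, Fcgr4, Fcer1g or Fcgrt occurred in another of the 6 genes. Over the whole coding sequence Fcgr2b and Fcgr3 were 80.6% identical, and every other pair of the 4 receptors was between 58.6% and 63.1% identical. How the authors counted reads that fit several genes is not given in the sources used here, so the levels of Fcgr2b and Fcgr3 are uncertain to that extent.

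The question behind the ratios was how the activating receptors stood against the inhibitory one in each sample. The sum of Fcgr1, Fcgr3 and Fcgr4 was 0.676 and 0.670 times the level of Fcgr2b in ND and 1.77 and 1.92 times in HFD. Both HFD values lay above both ND values, while the place of 1 among them depends on the gene lengths behind the TPM, which are not given in the sources used here. The log2 difference of this ratio was 1.45, with a pooled SD of 0.06 over the 2 samples of each diet, a 2.74-fold higher ratio. Without HFD replicate 1 it was 1.51.

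Among the single receptors, Fcgr4 to Fcgr2b differed most, at 0.0902 and 0.0852 in ND and 0.468 and 0.542 in HFD, a 5.74-fold difference. Fcgr1 to Fcgr2b was 0.175 and 0.178 in ND and 0.415 and 0.451 in HFD. Fcgr3 to Fcgr2b was 0.411 and 0.407 in ND and 0.888 and 0.923 in HFD. With Fcgr3 left out, whose sequence is shared in part, Fcgr1 and Fcgr4 together were 0.265 and 0.263 times Fcgr2b in ND and 0.883 and 0.993 times in HFD.

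The ratio of Fcer1g to the 3 activating receptors it serves was lower in HFD, at 5.68 and 5.44 in ND and 3.85 and 3.79 in HFD. The change within the activating receptors lay in Fcgr4, whose ratio to Fcgr3 was 0.220 and 0.209 in ND and 0.526 and 0.587 in HFD. Against Fcgr1 it was 0.516 and 0.479 in ND and 1.13 and 1.20 in HFD. In each of 11 ratios compared, the diets did not overlap, and each gave an exact permutation p of 0.333, the smallest that 2 samples against 2 allow. Each ratio holds Fcgr2b, Fcgr4, Fcer1g or Fcgrt, whose own values did not overlap, so the 11 are not separate results. Of single genes tested, 66.9% did not overlap, and 6 of the 11 ratios were added after seeing the data.

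**Figure D3:**
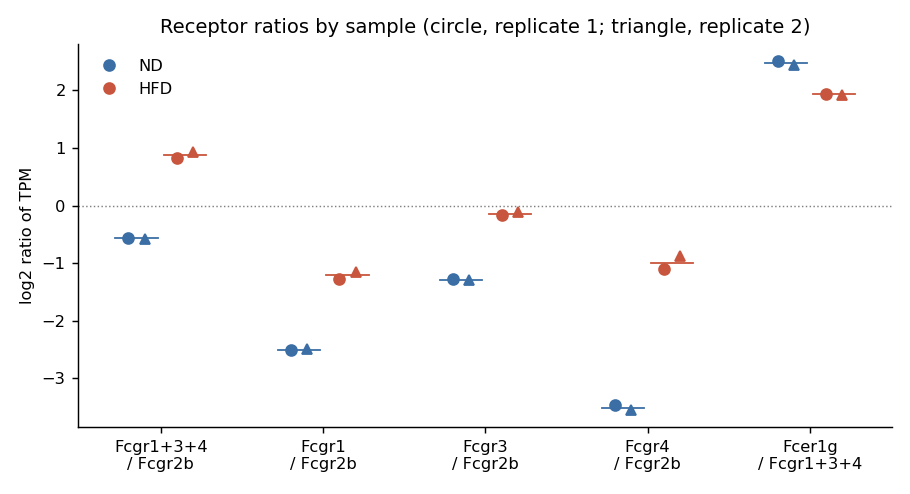
Log2 ratio of TPM between receptors in each sample, with a dotted line where the TPM values are equal. Blue marks are ND and red marks HFD, circles replicate 1, triangles replicate 2, and lines the mean of 2 samples. The ratio of the activating receptors to Fcgr2b is higher in both HFD samples than in both ND samples, and where it lies against the dotted line depends on the gene lengths behind the TPM.

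In all, the 4 Fc gamma receptor transcripts summed to 776.3 and 811.8 TPM in ND versus 573.6 and 603.5 TPM in HFD. Fcgr2b made up 59.7% and 59.9% of this sum in ND and 36.1% and 34.3% in HFD. Fcgr4 made up 5.38% and 5.10% in ND and 16.9% and 18.6% in HFD. Fcgr3 went from 24.5% and 24.4% to 32.1% and 31.6%, and Fcgr1 from 10.4% and 10.7% to 15.0% and 15.5%. The order of levels was Fcgr2b, Fcgr3, Fcgr1 and Fcgr4 in ND, and in HFD Fcgr2b and Fcgr3 drew close, 207.0 against 183.9 and 191.0 TPM. These shares depend on the gene lengths the authors divided by, which are not given in the sources used here, and for Fcgr2b the shortest RefSeq-paired transcript has 1462 bases while the exons of all its models merged cover 5790.0 bases. In the fold change of a single gene between diets, its own length cancels. The lengths of all genes enter it only through the scaling of each sample. The size of a change in these shares, and in a ratio with a sum of receptors, depends on the lengths of the receptors.

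**Figure D4:**
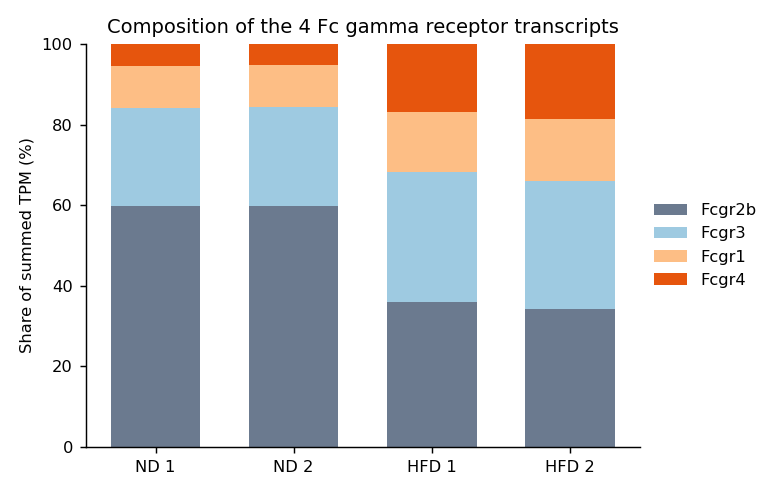
Share of each of the 4 Fc gamma receptors in their summed TPM (percent) in each sample. Fcgr2b takes 59.7% and 59.9% in ND and 36.1% and 34.3% in HFD, and Fcgr4 goes from 5.38% and 5.10% to 16.9% and 18.6%.

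The promoters of the genes that changed are shown with those of Fcgr1, to set sequence beside the opposite changes of Fcgr2b and Fcgr4. Each is the 250 bases before the start in RefSeq for GRCm38.p6, 5′ to 3′ on the strand of the gene. Capitals mark matches to motifs searched on both strands, GAGGAA (the core of PU.1 sites), the ETS-IRF composite (GGAA and GAAA on one strand, 2 bases apart) and TTCNNNGAA (the STAT site), which were chosen after the sequences had been seen.
Fcgr2b: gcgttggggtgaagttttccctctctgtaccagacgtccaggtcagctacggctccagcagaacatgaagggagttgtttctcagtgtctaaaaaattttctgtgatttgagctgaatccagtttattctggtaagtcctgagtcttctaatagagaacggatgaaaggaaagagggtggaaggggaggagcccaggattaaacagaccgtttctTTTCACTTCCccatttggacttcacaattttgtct
Fcgr4: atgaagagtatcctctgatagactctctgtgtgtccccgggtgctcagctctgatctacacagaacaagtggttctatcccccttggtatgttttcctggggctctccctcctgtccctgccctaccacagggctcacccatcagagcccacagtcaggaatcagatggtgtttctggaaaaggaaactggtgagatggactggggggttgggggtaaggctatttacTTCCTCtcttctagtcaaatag
Fcgr1: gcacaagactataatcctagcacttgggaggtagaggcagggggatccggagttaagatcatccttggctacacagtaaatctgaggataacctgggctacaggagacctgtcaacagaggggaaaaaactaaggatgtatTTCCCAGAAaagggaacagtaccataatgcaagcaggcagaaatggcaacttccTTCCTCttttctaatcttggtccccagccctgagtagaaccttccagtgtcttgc
Fcgrt: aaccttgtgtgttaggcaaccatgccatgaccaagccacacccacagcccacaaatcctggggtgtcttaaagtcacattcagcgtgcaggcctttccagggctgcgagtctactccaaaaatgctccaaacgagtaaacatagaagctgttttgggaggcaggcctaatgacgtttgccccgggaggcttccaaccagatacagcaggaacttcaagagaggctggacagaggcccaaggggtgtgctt

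The windows lie at chr1:170976072-170976321 for Fcgr2b, chr1:171018676-171018925 for Fcgr4, chr3:96293970-96294219 for Fcgr1 and chr7:45103823-45104072 for Fcgrt. Positions count back from the start, the base before it being -1. The Fcgr4 window held GAGGAA at -22 to -17 and that of Fcgr1 at -55 to -50, both on the opposite strand. The window taken for Fcgr3, at chr1:171059404-171059653, held it at -6 to -1 on the opposite strand, counted from a RefSeq start that lies inside the gene as located above. This motif is common, found in 23.1% of 27025 promoters of the same length. Fcgr1 also held TTCNNNGAA at -109 to -101, found in 7.18%. Fcgr2b held the ETS-IRF composite at -35 to -26, found in 2.38% of promoters. The windows of Fcgrt and Fcer1g held none of the 3, which says only that these letters do not occur there, and no binding was measured.

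Around the 4 genes on chromosome 1, 17 other genes within 100000 bases were tested. Gm39701, Pcp4l1 and Adamts4, named after their values were seen, passed the rule, a share near the 18.4% of all genes tested, and the other 14 did not. Gm39701, a predicted gene beside Fcgr2b, fell from 130.6 and 136.9 in ND to 37.5 and 31.0 TPM in HFD. Pcp4l1 and the protease gene Adamts4 rose, with log2 fold changes of 2.68 and 2.22. Fcrla, an Fc receptor-like gene in the same cluster that was also named after its values were seen, had a log2 fold change of -0.88 without passing the test (adjusted p = 0.0678 in limma).

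The pathway around the receptors was read from 9 lists. Of 113 genes listed, 93 were tested, and 9 were higher and 23 lower in HFD, together 34.4% against 18.4% of all genes tested. Of these 32 genes, 8 are also markers of B cells, plasma cells, NK cells or mast cells in the cell type lists, and all 8 were lower. Among other Fc receptors, 5 of 8 tested fell and none rose, with a median log2 fold change of -0.97, which was -1.43 with a pseudocount of 0.1 and -0.43 with one of 5. Fcrls, an Fc receptor-like protein known from microglia, fell from 513.5 and 522.5 TPM to 125.0 and 99.7 TPM. Fcmr, the receptor for IgM on lymphocytes, fell by 2.13, and Fcer1a, the IgE-binding chain that pairs with Fcer1g on mast cells, fell by 1.22 (adjusted p = 0.0477 in limma), both on the log2(TPM + 1) scale. Ms4a2 and Fcer2a, at most 2.7 TPM and named after their values were seen, were the others that fell. On the ligand side Jchain, the joining chain of polymeric antibodies, fell, with 285.5 and 298.4 TPM in ND versus 22.5 and 39.5 TPM in HFD, and the other immunoglobulin genes were not analysed here.

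The receptors that share the common chain with the Fc gamma receptors fell in 4 of 10 cases tested, with 1 higher and a median of -1.03. The median was -0.66 without HFD replicate 1, -1.39 at a pseudocount of 0.1 and -0.55 at one of 5. Clec4d, a C-type lectin of macrophages for mycobacterial glycolipid, rose from 25.5 and 25.2 in ND to 62.5 and 102.6 TPM in HFD. Clec4e (Mincle) was at 62.0 and 69.7 TPM in ND versus 55.7 and 74.1 TPM in HFD, with overlap. Clec4n (Dectin-2) was at 21.8 and 23.8 TPM in ND versus 7.7 and 15.5 TPM in HFD, which did not pass (adjusted p = 0.140 in limma). The NK cell receptors Ncr1 and Klrb1c fell by 2.45 and 1.97 on the log2 scale, and Lilra5 and Lilra6, named after their values were seen, by 1.43 and 1.49. Gp6 of platelets was at 0 in every sample.

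Among the other adaptors with the same ITAM as Fcer1g, Tyrobp (DAP12) was at 2027 and 2022 TPM in ND versus 2336 and 2451 TPM in HFD, higher in both HFD samples by a log2 fold change of 0.24 that does not reach 1.5-fold. The ratio of Fcer1g to Tyrobp was 0.877 and 0.876 in ND and 0.604 and 0.613 in HFD. The B cell adaptors Cd79a and Cd79b fell by 2.40 and 1.34 and the T cell adaptor Cd247, named after its values were seen, by 0.83, while Nfam1 was at -0.43 (adjusted p = 0.0542 in limma).

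Activating signaling downstream of the receptors moved in both directions, with 6 genes higher and 4 lower of 29 and a median of 0.10, which turned to -0.026 under quantile normalization. Lat2, an adaptor of myeloid cells, rose from 15.8 and 16.1 TPM to 48.1 and 46.8 TPM, and Blnk, a further adaptor, rose from 195.2 and 199.9 TPM to 392.9 and 355.2 TPM. Lat, the T cell counterpart of Lat2, fell from 18.8 and 17.9 TPM to 5.4 TPM in each HFD sample. The most abundant by the mean over all samples, Cdc42 and Rac1, which drive phagocytic cups, had log2 fold changes of 0.18 and -0.06 and did not pass. In HFD, Rac1 was at 302.3 and 295.7 TPM, under Blnk. Others that rose included the kinase Src, the adaptor Gab2 and Pik3cb, and the others that fell were Fgr, Plcg2 and Vav2, named after their values were seen, with log2 fold changes between -0.90 and 1.28.

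On the inhibitory side, which works with Fcgr2b, 1 of 7 genes fell and none rose, a share near the 18.4% of all genes tested. This was Dok2, at 94.0 and 93.5 TPM in ND versus 61.2 and 52.8 TPM in HFD. The phosphatase Ptpn6 and the kinase Csk had log2 fold changes of -0.09 and -0.34 and Inppl1 one of 0.54, all under 1.5-fold. Among genes that regulate Fc gamma receptors, 2 of 19 rose and 4 fell. Ifng, which raises the activating receptors, fell from 16.9 and 17.9 TPM to 1.2 and 1.8 TPM, while its receptor chain Ifngr2 rose from 92.9 and 93.3 TPM to 190.4 and 202.8 TPM. Il10, an anti-inflammatory cytokine, rose from 428.1 and 445.2 TPM to 778.2 and 882.1 TPM. Jak2, Irf1 and Il4ra, named after their values were seen, fell by 0.67, 0.64 and 0.81. Ifngr1 and Tgfb1 had log2 fold changes of -0.39 and -0.07 and did not pass the rule.

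For FcRn, none of 8 partner and recycling genes passed, against the fall of Fcgrt. In limma all 8 had an unadjusted p under 0.05, as did 42.3% of all genes tested, at changes under 1.5-fold. B2m, which forms the receptor with Fcgrt, was at 3105 and 3070.4 TPM in ND versus 2393 and 2546 TPM in HFD with a difference of -0.32 on the log2 scale (limma adjusted p = 0.0234), under 1.5-fold. The ratio of Fcgrt to B2m was 0.199 and 0.198 in ND and 0.132 and 0.122 in HFD. Calr and Pdia3, which fold class I chains, had log2 fold changes of 0.42 and 0.29, and Rab4a had one of 0.43. Among the oxidase subunits that phagocytes switch on after Fc receptor binding, Rac2 fell from 365.1 and 361.9 TPM to 208.9 and 213.4 TPM, while Cybb and Cyba had log2 fold changes of 0.39 and 0.41, under 1.5-fold.

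**Figure D5:**
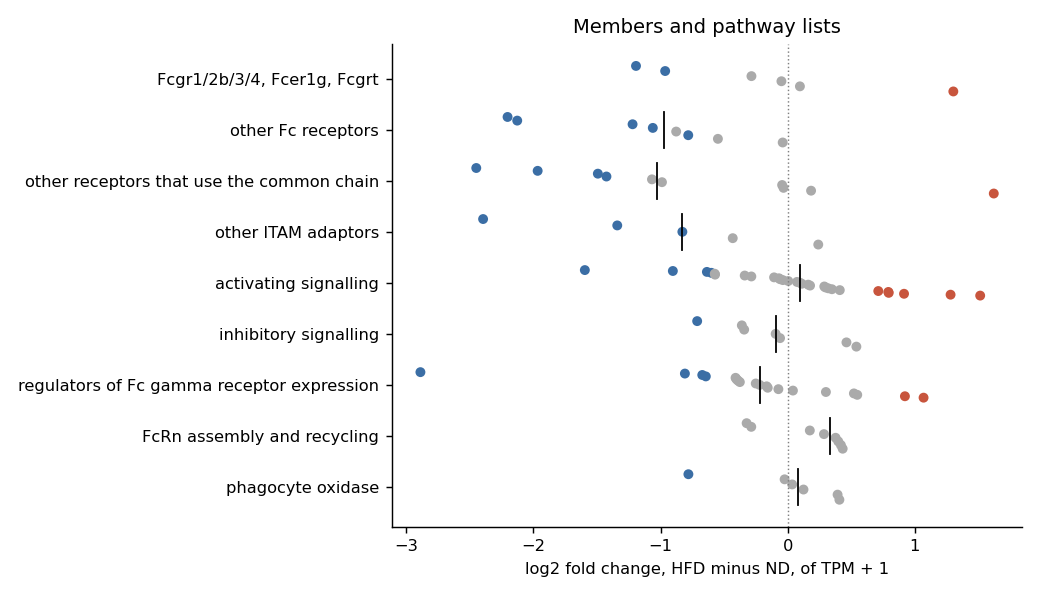
Log2 fold change, HFD minus ND, of TPM + 1 for the 6 genes and for the tested genes of 8 lists. Red points passed the rule as higher, blue points as lower, grey points did not pass, and black lines mark list medians. Other Fc receptors and other common-chain receptors have medians of -0.97 and -1.03, and activating signaling one of 0.10 that turned to -0.026 under quantile normalization.

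The receptors are carried by several cell types whose markers moved in the same comparison. Resident macrophage markers fell in all 8 genes listed, their sum being 6436 and 6495 TPM in ND versus 2299 and 1974 TPM in HFD, and lipid-associated macrophage markers rose in all 8, from 1649 and 1689 to 10176 and 10652 TPM. Of 10 general macrophage genes 2 rose and 1 fell, while 7 were lower in both HFD samples, and their sum was lower in HFD, at 17952 and 19266 TPM against 21840.0 and 21168 TPM in ND, without overlap. Over all genes tested, 18.4% passed the rule and 32.8% were lower in both HFD samples. B cells, whose Fc gamma receptor is Fcgr2b, had 6 of 7 tested markers lower, the sum being 136.4 and 134.7 TPM in ND versus 28.3 and 33.0 TPM in HFD. NK cell markers, in cells that carry Fcgr3, fell in 8 of 8, from 223.3 and 230.0 to 48.0 and 39.0 TPM, and mast cell markers fell in 8 of 8, from 1602 and 1622 to 392.8 and 505.0 TPM. Of monocyte, neutrophil and dendritic cell markers, 4 of 8, 5 of 6 and 2 of 8 fell, and 6, 5 and 8 were lower in both HFD samples. Markers of T cells fell in 7 of 7, plasma cells in 3 with 2 higher of 6, eosinophils in 2 of 4 with Epx and Ear6 at 0, adipocytes in 2 with 1 higher of 7 and general immune cells in 1 of 5. Fibroblast markers rose in 5 of 7, and none of 7 endothelial and 7 spermatid genes passed, 4 and 0 of them having an unadjusted p under 0.05 in limma. Relative to the macrophage list, the log2 fold changes were -1.07 for Fcgr2b, 1.43 for Fcgr4, -0.84 for Fcgrt and -0.16 for Fcer1g. The part of each cell type in the receptor values was not tested.

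The genes whose values were most like each of the 6 were sought among 8105 genes of at least 10 TPM on average, by the distance of centred log2 values over the 4 samples. Nearest to Fcgr2b was Ccr2, the monocyte chemokine receptor, at 117.8 and 125.5 TPM in ND versus 53.1 and 54.7 TPM in HFD (distance 0.05 on the log2 scale), followed by Epsti1 and R74862. Nearest to Fcgr4 was Cd300a, an inhibitory receptor of myeloid cells, at 26.1 and 26.6 TPM in ND versus 64.6 and 69.6 TPM in HFD, followed by Itga5, a fibronectin receptor chain, and Cttn. Nearest to Fcgrt were Ifi27l2a, at 297.5 and 300.1 TPM in ND versus 151.1 and 154.0 TPM in HFD, Zfp36l2 and Ifit1. For Fcer1g they were Psma7, Mllt6 and Twf2, for Fcgr1 Nolc1, Zfp146 and Apmap, and for Fcgr3 Mrps21, Ctbp1 and Pttg1ip, all at distances from 0.003 to 0.02. With 4 samples a small distance is weak evidence of likeness, and how many genes lie within these distances was not counted.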

How the data were processed

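RNA-seq was performed on CD45+ cells from the eWAT of ND- and HFD-fed mice, 2 samples per diet. Per the paper's methods and the submitters' processing notes, reads were trimmed with Trim Galore 0.4.2 and cutadapt 1.9.1, aligned to mm10 with STAR 2.6.1e, freed of duplicates and counted with featureCounts 1.6.2. The authors deposited TPM per gene, which are counts divided by gene length and scaled to a constant total per sample. The annotation and the use of strand are not given in the sources used here, and the paper's general statistics section names tests without tying them to the RNA-seq.

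Values were compared as log2(TPM + 1) with limma 3.58.1 in R 4.3.3 (lmFit, eBayes with a variance trend), two-sided, over genes that reached 1 TPM in 2 or more samples, with Benjamini-Hochberg adjustment. The added 1 understates the change of low genes. A gene passed at an adjusted p under 0.05 and at least 1.5-fold. Ratios were taken per sample from TPM with no pseudocount, and 6 of the 11 were added after seeing the data. The limma fit and the depth estimate were tested on simulated data, the former with the same spread in both diets, unlike the replicates here. The ratios, the search for like genes and the sequence searches were not. Depth was estimated from microRNA gene values and GENCODE vM21 exon lengths, and read numbers are approximate. All 6 genes matched RefSeq promoters of GRCm38.p6. Plots used Python 3.11.15 and matplotlib 3.10.9.

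The members and lists were chosen with earlier results of these data known. The genes named in the text were the members, B2m, from each list the 3 most abundant tested genes and the 2 with the largest change, and the 3 genes most like each member; Ptprc, Gp6 and Fcrla are named as marker, gene at 0 and neighbour, and other genes are said to have been named after their values were seen. The alternatives were pseudocounts of 0.1 and 5, other filters, no variance trend, other scalings, a 2-fold limit, values relative to macrophage or immune cell genes, a replicate block and each sample left out. A member of the signaling lists is counted but not reported by name here.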

Additional observations from a re-analysis of the deposited data

How the results depend on the processing

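Fcgr2b, Fcgr4 and Fcgrt kept their direction under every alternative run, with log2 fold changes from -1.27 to -0.94, from 1.19 to 1.55 and from -1.05 to -0.71. Fcgrt (-0.96) was no longer past a limit of 2-fold. Leaving out each sample gave log2 fold changes that ran from -1.23 to -1.16 for Fcgr2b, from 1.20 to 1.41 for Fcgr4, from -0.98 to -0.95 for Fcgrt, from -0.33 to -0.24 for Fcer1g, from 0.04 to 0.16 for Fcgr1 and from -0.08 to -0.02 for Fcgr3, and the calls without an ND sample were lost, where the lone sample is assumed to vary like the others. Fcgr1 turned to -0.028 under quantile normalization, and Fcgr3 turned to 0.079 relative to the macrophage list and to 0.20 relative to the immune cell list, the latter chosen after seeing the data. The medians of other Fc receptors and other common-chain receptors moved to -1.43 and -1.39 with a pseudocount of 0.1 and to -0.43 and -0.55 with one of 5. The medians of activating signaling and of the phagocyte oxidase turned to -0.026 and -0.060 under quantile normalization. With the geometric mean of the 3 activating receptors, the log2 difference was 1.65 for the ratio to Fcgr2b and -0.74 for the ratio of Fcer1g to them, and with Fcgr1 and Fcgr4 only 1.83 and -0.91, since another quantity is averaged. The number of genes past the rule was 3097, and 2015 with a pseudocount of 5, 1602 at 2-fold and 812 with a replicate block, under which 13 genes of the lists passed in place of 32. Without each sample in turn, chosen after seeing the data, it ran from 0 to 4232, and that of the lists from 0 to 31, both 0 without either ND sample (3862 and 4024 genes at an unadjusted p under 0.05 in limma). Same-numbered samples did not deviate together (correlation -0.015), so the numbers were not taken as a pairing, and the block, which leaves fewer degrees of freedom, kept the calls of Fcgr2b, Fcgr4 and Fcgrt at adjusted p-values in limma of 0.0449, 0.0465 and 0.0449. Depth does not limit the 6 genes, while genes near 0.1 TPM rest on few reads.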
